A study of Mus musculus with 12 samples.

Results

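The 10 genes of transforming growth factor beta (TGF-beta) signalling and its ID outputs were followed in haematopoietic stem cells (HSCs) of mouse bone marrow. They were the ligand Tgfb1, the receptors Tgfbr1 and Tgfbr2, the signal transducers Smad3 and Smad4, the inhibitors Smad7 and Skil, and the ID factors Id1, Id2 and Id3. Members were chosen by name: of the 18193 genes that an array probe set names alone, these 10 were covered by 23 probe sets. The probe set with the highest average log2 signal across the 12 arrays stood for its gene, and any others were read beside it. Of the 10 genes, 9 passed the filter on low signals and were tested among 12083 genes; Id1 did not pass it.

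The study compared 4 groups of 3 biological replicates each. Wild-type and NrasG12D/+ mice, the second heterozygous for an activated allele of the small GTPase Nras, had all received doxycycline in their water for 6 weeks and were followed for 12 weeks after its removal. From each genotype, HSCs were sorted into a GFP- fraction, which the labels call cycling, and a GFPhigh fraction, which they call quiescent; the label dilutes as cells divide. The promoter that drives GFP, the Cre or line that carries the Nras allele, the age of the mice and any pooling of animals are not given in the sources used here. Total RNA was hybridised to expression arrays, and the signal of a probe set is a linear brightness in arbitrary units. Levels are not set against each other between genes, since probe sets differ in binding.

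TGF-beta binds a type 2 receptor (Tgfbr2), which recruits and phosphorylates a type 1 receptor (Tgfbr1), and the active complex phosphorylates Smad2 and Smad3, which enter the nucleus with Smad4. Smad7 blocks the receptor, and Skil, also called SnoN, binds the SMAD complex on DNA and represses its targets. In bone marrow, TGF-beta is a known brake on HSC division. The ID proteins lack a DNA-binding region, pair with basic helix-loop-helix (bHLH) factors and keep them off DNA; their genes are common targets of the related bone morphogenetic protein (BMP) arm.

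Promoter sequences are shown for the ligand, a receptor and an ID factor, as a description. The RefSeq table (GRCm38.p6) held windows for 6 of the 10 genes, Tgfb1, Tgfbr1, Tgfbr2, Smad3, Id2 and Id3, and the 250 bases before each start were searched on both strands. The motifs were CAGACA (reverse complement TGTCTG), which holds a SMAD box, the GC-rich SMAD element GGCGCC and the E-box CAGCTG; none of these overlaps another in the sequences shown. Tgfb1 is at chr7:25686752-25687001 on the + strand, Tgfbr1 at chr4:47352972-47353221 on the + strand and Id2 at chr12:25096093-25096342 on the - strand; each run is upstream of its gene's annotated start and capitals mark motif matches.
Tgfb1: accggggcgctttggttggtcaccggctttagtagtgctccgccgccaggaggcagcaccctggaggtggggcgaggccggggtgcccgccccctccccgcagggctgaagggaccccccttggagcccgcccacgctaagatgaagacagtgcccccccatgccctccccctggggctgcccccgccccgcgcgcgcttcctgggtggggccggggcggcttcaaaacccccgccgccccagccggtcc
Tgfbr1: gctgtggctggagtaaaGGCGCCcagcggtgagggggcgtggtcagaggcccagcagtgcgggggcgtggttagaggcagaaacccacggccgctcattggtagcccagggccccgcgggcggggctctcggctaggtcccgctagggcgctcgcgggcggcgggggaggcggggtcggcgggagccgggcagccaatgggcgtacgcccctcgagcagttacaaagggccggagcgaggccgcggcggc
Id2: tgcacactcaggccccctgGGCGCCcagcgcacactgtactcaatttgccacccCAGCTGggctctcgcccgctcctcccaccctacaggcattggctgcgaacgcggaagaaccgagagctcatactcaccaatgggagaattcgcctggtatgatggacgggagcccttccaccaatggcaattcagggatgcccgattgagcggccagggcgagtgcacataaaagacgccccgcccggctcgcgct
The Tgfb1 window held none of the 3 motifs, the Tgfbr1 window held 1 GGCGCC and the Id2 window held 1 GGCGCC and 1 CAGCTG. The windows of Tgfbr2, Smad3 and Id3 held none, while a second Tgfbr1 window, for another annotated start, held 1 CAGACA. Over 32851 promoter windows of the same length, 17.1% held CAGACA, 9.59% held GGCGCC and 13% held CAGCTG. The Tgfb1 window was 75.2% G and C and the first Tgfbr1 window 74.8%, against 62.8% in the Id2 and Id3 windows.

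The arrays differed in median signal and in how far their readings lay from the group means, which sets the limma array weight. What lay behind these differences was not tested. Median signals ran from 44 to 129.6 per array although all arrays shared a trimmed mean of 500, and 4 arrays had a limma array weight under 0.6 (wild-type GFPhigh replicate 2, Nras GFP- replicate 1, Nras GFPhigh replicates 1 and 2), the other 8 lying between 0.903 and 2.46. Leaving these 4 out keeps 1 Nras GFPhigh array, 2 Nras GFP- arrays and 2 wild-type GFPhigh arrays, and values without them are given beside the members' differences. The Nras probe set of highest signal ran from 1250.2 to 4274.8 and differed by 0.39 ± 0.26 (log2, SE) between genotypes (adjusted p = 0.729); the array cannot show a point mutation. Markers of HSCs were present: Kit ran from 2228.3 to 4281.4, and the summed signal of the 8 of 10 HSC markers on the array ran from 24977.5 to 48785.9. Fgd5 read 218.7, 264.8 and 652.5 in Nras GFPhigh replicates 1 to 3 and 1973.3, 1741 and 2057.4 in wild-type GFPhigh. Its log2 Nras difference over both fractions was -1.46. That of Slamf1, Procr and Kit was -0.31, -0.23 and -0.12. Hoxb5, Hlf, Mllt3 and Mecom gave 0.61, 0.38, 0.18 and 0.12. Slamf1 read 155.2 in Nras GFPhigh replicate 2 and 4046.5 in Nras GFP- replicate 1. Whether the groups were alike in HSC content was not tested. Summed signals of 9 granulocyte markers ran from 5728.3 to 57194.6 in Nras GFPhigh samples and from 467.1 to 12798.8 in the other groups, and those of 8 endothelial and stromal markers from 2040.9 to 5895.3 against 340.5 to 3846.3. Ltf, a neutrophil granule gene, read 5347.5, 6599.6 and 902.6 in Nras GFPhigh replicates 1 to 3 and 10.1, 7.3 and 45.1 in Nras GFP-. In wild-type mice it read 1014, 20.6 and 1413.4 in GFP- and 708.3, 31.5 and 41.2 in GFPhigh. Mpo, of the same list, read 156.1 in Nras GFPhigh replicate 3 and 3229.3 in Nras GFP- replicate 3. The part of such cells in the results below was not tested. In bulk RNA, fewer cells of a type and less RNA per cell cannot be told apart.

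Of the probe sets that stood for their genes, that of the ligand showed the largest difference between genotypes over all 12 arrays. Without the 4 uneven arrays the difference of Id2 was larger (-2.23 against 1.24), and with the mean over each gene's probe sets those of Skil (1.38) and Tgfbr1 (-1.17) were larger than that of Tgfb1 (0.54). Tgfb1 (probe set 1420653_at) read 104.7, 1143.6 and 605.9 in wild-type GFP- replicates 1 to 3, 629.1, 186.2 and 164.8 in wild-type GFPhigh, 4666.4, 2664.9 and 1218 in Nras GFP- and 469.5, 1197.2 and 414.3 in Nras GFPhigh. All 3 Nras GFP- samples lay above all 3 wild-type GFP- samples and above all 3 Nras GFPhigh samples; the wild-type groups overlapped. The group means were 618 ± 520, 327 ± 262, 2849.8 ± 1732 and 694 ± 437 (SD, n = 3 each).

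In limma, Tgfb1 was 1.88 ± 0.66 (log2, SE) higher in Nras than in wild-type cells over both fractions (3.69-fold, 95% interval 0.45 to 3.32 on the log2 scale). Its unadjusted p was 0.0140 and its adjusted p over 12083 genes 0.594, so it was not called; it was 1 of 9 members with an unadjusted p under 0.05, against 7.78% of all genes. Within the GFP- fraction the Nras difference was 2.57 ± 0.94 (5.93-fold, unadjusted p = 0.0169, adjusted p = 0.983; 2.11 without the uneven arrays), where 4.39% of all genes had an unadjusted p under 0.05. GFPhigh against GFP- over both genotypes gave -1.32 ± 0.66 (adjusted p = 0.598), and -1.25 without the uneven arrays. No member was called in any of the 7 comparisons, and of all genes 0.00828% were called in the Nras comparison (1 gene, Gem) and 0% in the 6 others; with unadjusted p under 0.05, the label comparison over both genotypes held 8.87% of all genes and no member.

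The second Tgfb1 probe set went the other way. Probe set 1445360_at read 163.2, 510.5 and 127.3 in wild-type GFP- and 84.8, 29.5 and 113.9 in Nras GFP-, again with no overlap but with Nras lower, a log2 difference of -1.74. Over both fractions it gave -0.81 against +1.88 for the first probe set, and the mean over both probe sets gave 0.54. Without the 4 uneven arrays, 1420653_at gave 1.24 ± 0.85 (adjusted p = 0.742) and 1445360_at gave -1.13. Without wild-type GFP- replicate 1 alone, the low sample of its group, the GFP- Nras difference of 1420653_at was 1.57 instead of 2.57.

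**Figure D1:**
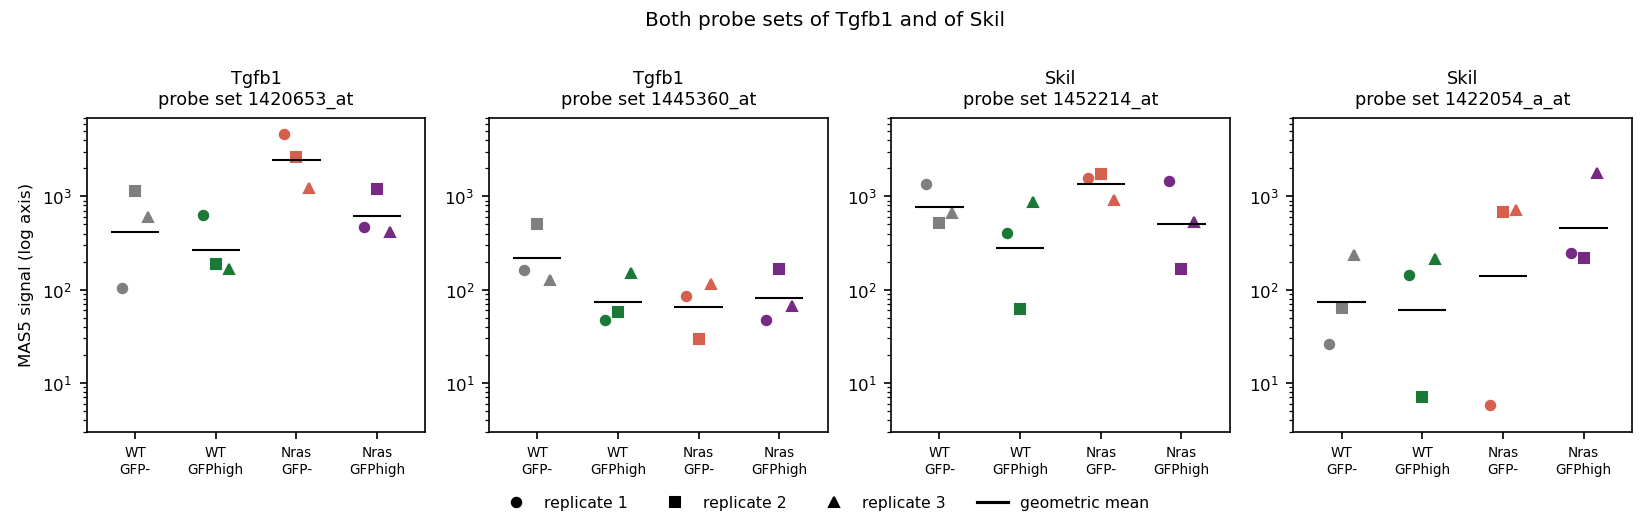
Both probe sets of Tgfb1 and of Skil: MAS5 signal on a log axis in each of the 4 groups, with a marker per replicate and a line at the geometric mean. The first Tgfb1 probe set is highest in Nras GFP- cells (1218 to 4666.4), where the second reads 29.5 to 113.9, and the second Skil probe set spreads from 5.8 to 1758.7.

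Neither receptor gene was called in any comparison, and their averaged differences were smaller than their standard errors. Tgfbr1 (1420894_at), the type 1 receptor kinase, read 607.2, 665.9 and 879 in wild-type GFP- samples, 1713.7, 1045 and 933.7 in wild-type GFPhigh samples, 377.9, 1520.5 and 727 in Nras GFP- and 303.1, 523.3 and 1200 in Nras GFPhigh. In wild-type mice every GFPhigh sample lay above every GFP- sample, which was 1 of 9 members (11.1%) against 11.1% of all genes; in Nras mice the groups overlapped. The limma difference was 0.18 ± 0.49 for GFPhigh minus GFP- (adjusted p = 0.933) and -0.48 ± 0.49 for Nras minus wild-type (adjusted p = 0.821); without the uneven arrays these were 0.51 and 0.25.

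The other Tgfbr1 probe sets read lower in some Nras samples. Probe set 1420895_at read 14.7, 113.3 and 619.7 in Nras GFPhigh against 785.2, 1853 and 717.2 in wild-type GFPhigh. All 3 Nras samples were lower, where 12.5% of all genes did not overlap in either direction. The Nras difference of this probe set over both fractions was -2.42. The lowest readings, 14.7 and 47.3, were from uneven arrays, and without those 4 arrays the difference was -0.26. Probe set 1420893_a_at gave -0.61, with 124.8 to 708.5 in Nras GFPhigh and 179.7 to 892.2 in wild-type GFPhigh, and turned to 0.43 without the uneven arrays.

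Tgfbr2 (1426397_at), the receptor that binds the ligand, read 1377.1, 748.3 and 1813.6 in wild-type GFP- samples, 1996.8, 280.9 and 2112.3 in wild-type GFPhigh samples, 342.8, 2533.7 and 2043.2 in Nras GFP- and 319.4, 704.9 and 2469.5 in Nras GFPhigh. In each group other than wild-type GFP-, the lowest sample (280.9, 342.8 and 319.4) came from an uneven array. GFPhigh minus GFP- was -0.39 ± 0.71 (adjusted p = 0.900) and 0.43 without those arrays, and Nras minus wild-type was -0.19 ± 0.71 (adjusted p = 0.953) and 0.58 without them. The other probe sets ran from 1.6 to 499.2 for 1425444_a_at and from 1.4 to 19.2 for 1422019_at.

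Smad3 (1454960_at), which the active receptor phosphorylates, was read at 2120.5, 2184.2 and 1542.5 in wild-type GFP- samples, 1093.2, 1793.3 and 2376.3 in wild-type GFPhigh samples, 5145.6, 4533.2 and 1905.6 in Nras GFP- and 4805.5, 1088.5 and 935.1 in Nras GFPhigh. The 3 highest samples were all Nras, yet 1 sample in Nras GFP- and 2 in Nras GFPhigh lay within or below the wild-type range of 1093.2 to 2376.3. The Nras difference was 0.45 ± 0.43 (adjusted p = 0.811) and -0.088 without the uneven arrays. GFPhigh minus GFP- was -0.63 ± 0.43 (adjusted p = 0.696), and -0.95 ± 0.39 without the uneven arrays (adjusted p = 0.445). Probe sets 1450472_s_at (206.5 to 1817.6) and 1450471_at (67.9 to 654.5) gave GFPhigh differences of -0.16 and -0.64, and of -0.65 and -0.099 without the uneven arrays.

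Smad4, the shared partner of all receptor-regulated SMADs, varied least of the 9 tested members. Probe set 1422486_a_at read 2315.6, 3858.3 and 2338 in wild-type GFP- samples, 3547, 1515 and 3293.8 in wild-type GFPhigh samples, 4251.4, 4444.2 and 2103.2 in Nras GFP- and 3601.6, 4421.8 and 3670.4 in Nras GFPhigh. All 3 Nras GFPhigh samples lay above all 3 wild-type GFPhigh samples, 1 of 9 members (11.1%) against 12.5% of all genes, and the Nras difference over both fractions was 0.44 ± 0.28 (adjusted p = 0.718), and 0.13 without the uneven arrays. GFPhigh minus GFP- was 0.05 ± 0.28 (95% interval -0.56 to 0.66), -0.12 with each array centred on its median and 0.29 without the uneven arrays. Its log2 SD over the 12 arrays was 0.50, and 13.3% of tested genes had a smaller one. The other probe sets, 1422487_at (1414.8 to 4418) and 1422485_at (60 to 921.8), gave Nras differences of -0.17 and 0.48, and of 0.17 and 0.16 without the uneven arrays.

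**Figure D2:**
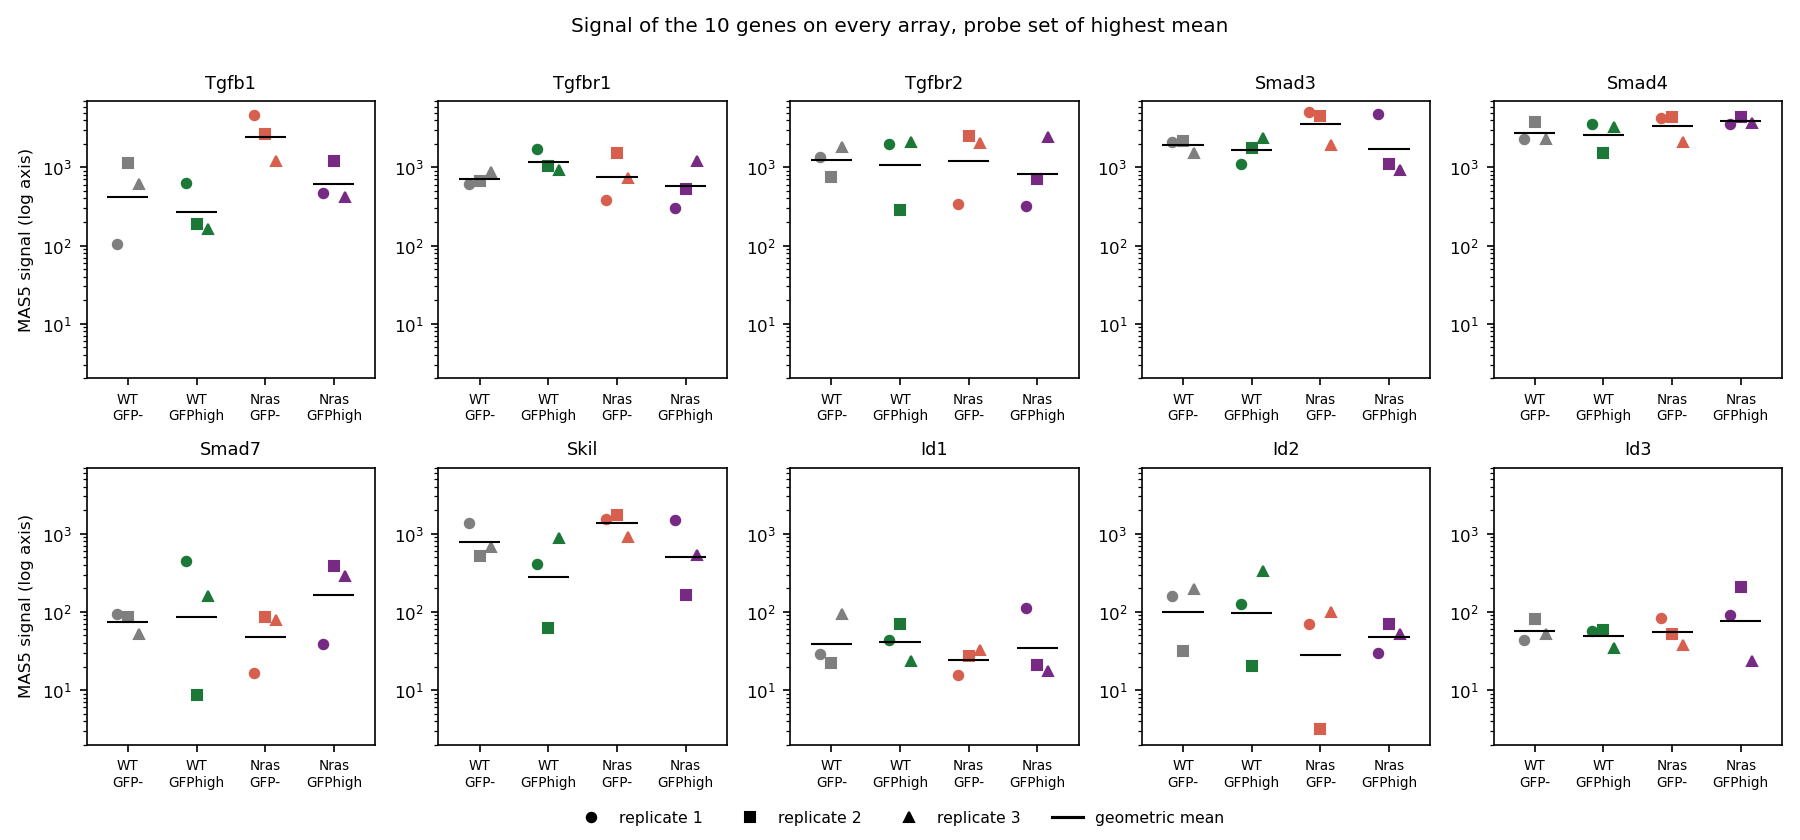
MAS5 signal of the 10 genes on every array, on a log axis with the 4 groups on the x axis, a marker per replicate and a line at the geometric mean; the probe set of highest mean is shown. Tgfb1 reaches 4666.4 in Nras GFP-, Smad4 stays between 1515 and 4444.2, and Smad7 and the 3 ID genes lie under 500 in all samples.

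Smad7, the inhibitor that blocks the type 1 receptor, was low. Probe set 1443771_x_at read 93.3, 86.2 and 52.5 in wild-type GFP- samples, 452.5, 8.6 and 160.3 in wild-type GFPhigh samples, 16.7, 86.2 and 78.7 in Nras GFP- and 38.5, 389.8 and 288.5 in Nras GFPhigh, above the array's own median on 6 of 12 arrays. In each genotype 2 of 3 GFPhigh samples lay above all GFP- samples and the third lay below most of them. GFPhigh minus GFP- was 0.97 ± 0.97 (adjusted p = 0.803), and 1.83 ± 0.71 without the uneven arrays (unadjusted p = 0.0296, adjusted p = 0.413). Nras minus wild-type was 0.15 ± 0.97 (adjusted p = 0.976), and 0.12 without the uneven arrays. The probe set can bind other transcripts, as the suffix _x_ marks; the second, 1423389_at (3.3 to 157), gave -0.16 and, without the uneven arrays, 2.07.

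Skil (1452214_at), the SMAD corepressor, had the lowest p of the members for GFPhigh against GFP- averaged over genotypes, with all 12 arrays; without the uneven arrays that of Smad7 was lower. It read 1358.7, 517.4 and 670.5 in wild-type GFP- samples, 408.7, 61.7 and 877.5 in wild-type GFPhigh samples, 1563.5, 1729.2 and 915.4 in Nras GFP- and 1477, 165.9 and 527.3 in Nras GFPhigh. In both genotypes 2 of 3 GFPhigh samples lay below all GFP- samples, and the ranges overlapped. The limma difference was -1.45 ± 0.71 (unadjusted p = 0.0622, adjusted p = 0.590), and -0.82 without the uneven arrays, 2 of which gave the low readings 61.7 and 165.9.

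Probe set 1422054_a_at of Skil disagreed. It read 26.2, 63.2 and 234.5 in wild-type GFP- samples, 144.2, 7 and 215.8 in wild-type GFPhigh samples, 5.8, 684.4 and 711 in Nras GFP- and 249.8, 218.2 and 1758.7 in Nras GFPhigh, a GFPhigh difference of +0.71, and 1.30 without the uneven arrays. Its mean with 1452214_at gave -0.37. For Nras minus wild-type the first probe set gave 0.82 ± 0.71 (adjusted p = 0.793; 0.25 without the uneven arrays) and the second 1.94 (3.29 without them, the reading of 5.8 being from an uneven array), of the same sign.

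**Figure D3:**
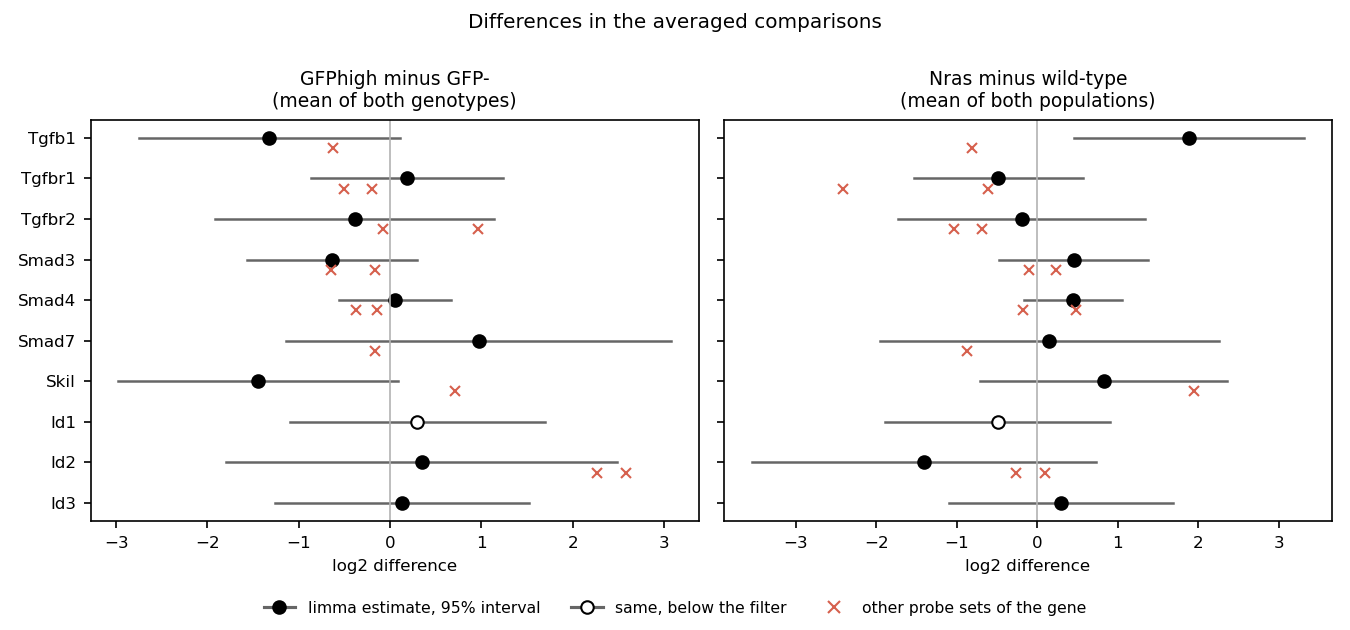
Log2 difference of each gene for GFPhigh minus GFP- (left) and Nras minus wild-type (right): circles with bars are limma estimates with 95% intervals, the open circle is Id1, which lay below the filter, and crosses are the other probe sets of the gene. Only the Tgfb1 interval in the Nras comparison (0.45 to 3.32) leaves 0 out, and a cross of Tgfb1 lies at -0.81.

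The 3 ID genes gave low signals in all groups. Id1 (1425895_a_at) ran from 15.8 to 110.8 and exceeded its array's median on 2 of 12 arrays. It read 28.7, 22.3 and 93.9 in wild-type GFP- samples, 43.5, 70.5 and 23.5 in wild-type GFPhigh samples, 15.8, 27.1 and 32.4 in Nras GFP- and 110.8, 20.9 and 17.4 in Nras GFPhigh, with no group apart. Without the filter, its GFPhigh difference was 0.30 ± 0.65 (adjusted p = 0.923) and its Nras difference -0.49 ± 0.65 (adjusted p = 0.899); without the uneven arrays these were -0.53 and -0.64.

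Id2 (1435176_a_at) varied most of the 9 tested members, with a log2 SD of 1.79, more than 81.0% of tested genes. It read 159.1, 31.6 and 193.6 in wild-type GFP- samples, 126.3, 20.3 and 338 in wild-type GFPhigh samples, 70.1, 3.2 and 100.8 in Nras GFP- and 29.4, 70.2 and 51.9 in Nras GFPhigh. Nras and wild-type ranges overlapped in both fractions, and the Nras difference was -1.41 ± 0.99 (unadjusted p = 0.179, adjusted p = 0.750), and -2.23 without the uneven arrays. For GFPhigh minus GFP- it was 0.35 ± 0.99 (adjusted p = 0.939), and 1.30 without the uneven arrays.

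The 2 other Id2 probe sets, not tested in the main fit, gave larger differences for GFPhigh minus GFP-. Probe set 1453596_at read 3.1, 2.5 and 2.8 in GFP- against 67, 19.2 and 16.2 in GFPhigh samples of wild-type mice, and 1.7, 7.3 and 4.5 against 20.9, 17.9 and 7.2 in Nras mice. Its GFPhigh difference was 2.58 (1.95 without the uneven arrays), but it exceeded the array's median on 0 of 12 arrays. The alternative without shared probe sets gave Id2 the same 2.58, and Id2 was not called under any alternative. Probe set 1422537_a_at gave 2.27, running from 7.6 to 30.8 in the GFP- and from 31 to 191.8 in the GFPhigh samples of wild-type mice. In Nras mice it read 4.8, 7.7 and 95.5 in GFP- against 570, 17.2 and 32.6 in GFPhigh samples, which overlapped, and the 570 came from an uneven array; without those arrays the difference was 1.60. All 3 probe sets had the same sign for GFPhigh minus GFP-.

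Id3 (1416630_at), the only probe set of its gene, read 43.1, 81.2 and 52.5 in wild-type GFP- samples, 57.6, 58.3 and 35 in wild-type GFPhigh samples, 83.5, 52.5 and 37.6 in Nras GFP- and 90.5, 206.2 and 23.7 in Nras GFPhigh. The highest and the lowest reading were both in Nras GFPhigh. The GFPhigh difference was 0.13 ± 0.64 (adjusted p = 0.967; -0.021 after quantile normalization and -0.039 after median centring) and the Nras difference 0.29 ± 0.64 (adjusted p = 0.927). Without the uneven arrays, which gave the readings 206.2 and 90.5, they were -0.62 and -0.64.

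Across the 9 tested members, 5 were higher and 4 lower in GFPhigh, with a median of 0.05 against 0.018 over all tested genes, and 6 were higher and 3 lower in Nras, with a median of 0.29 against -0.15. Groups that did not overlap were 1 of 9 members (11.1%) in the Nras label comparison, Tgfb1, against 12.9% of all genes, and 1 of 9 in the GFP- Nras comparison, Tgfb1 again, against 10.8%. In both averaged comparisons 0 of 9 members had non-overlapping groups, against 0.571% and 0.372% of all genes. No member had an unadjusted p under 0.05 for the interaction, where 4.68% of genes did, and the smallest was 0.269. None had one in the wild-type label comparison (2.2% of genes), the Nras label comparison (12.2%) or the GFPhigh Nras comparison (8.29%). Of the 8 members with several probe sets, 3 (Tgfb1, Smad3, Id2) had all of them of one sign for GFPhigh minus GFP-, and 3 (Skil, Tgfbr1, Tgfbr2) for Nras minus wild-type. Without the uneven arrays these were Tgfb1, Smad3, Smad7 and Id2 for the first and Skil, Smad4 and Id2 for the second. No share over all genes stands beside these counts, so they are a description and do not show that probe sets agree.

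Of the other genes of the pathway, by lists, none was called. Among ligands and latency genes, which hold or release TGF-beta from its latent form, 13 of 15 were on the array and 8 tested. All 8 were higher in GFPhigh on average (median 0.68, or 0.34 without the uneven arrays). Of these, 0 had an unadjusted p under 0.05, against 8.87% of all genes. In wild-type mice 4 of the 8 were higher and 4 lower (median -0.023), and in Nras mice all 8 were higher (median 1.47). In Nras mice 3 of 8 had an unadjusted p under 0.05, against 12.2% of all genes, led by Inhba, the activin A subunit. Inhba read 24.9, 92.8 and 32.8 in Nras GFP- and 413.8, 1539.1 and 793 in Nras GFPhigh, while the wild-type samples read 175.5, 86.9 and 62.2 in GFP- against 586.7, 6.7 and 133.6 in GFPhigh. The Nras label difference was 4.23 ± 1.33 (unadjusted p = 0.00735, adjusted p = 0.265), and 3.85 without the uneven arrays. The interaction, 4.52 ± 1.89, had an adjusted p of 0.956 and was 2.33 without those arrays. The other Inhba probe set, above the array's median on 0 arrays, did not show the difference. It read 5.4, 5.3 and 4.5 in Nras GFP- against 1.8, 5.7 and 3.6 in Nras GFPhigh, and its label difference over both genotypes was -0.19. The latency genes Ltbp4 and Ltbp1 gave 2.54 ± 1.0 and 1.74 ± 0.77 for the Nras label difference (adjusted p = 0.356 and 0.401). Without the uneven arrays Ltbp4 gave 1.68. Ltbp1 exceeded the array's median on 5 arrays, 2 of them GFP-, so it passed the filter of 3 only with GFPhigh arrays.

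The BMP arm, whose signals the ID genes commonly follow, had 6 of 15 genes tested. In each averaged comparison 1 had an unadjusted p under 0.05, Bmp4 in both. Of all genes 8.87% had one for the label and 7.78% for Nras. Bmp4, a ligand, read 40.2, 27.5 and 33.7 in wild-type GFP- samples, 202.1, 153.7 and 273.9 in wild-type GFPhigh samples, 17.1, 14.5 and 13.9 in Nras GFP- and 17.7, 276.1 and 31.6 in Nras GFPhigh. Bmp4 exceeded the array's median on 4 arrays, all of them GFPhigh, so it passed the filter only through the fraction where it was high. Wild-type GFPhigh lay above wild-type GFP- without overlap, as for 11.1% of all genes, and the difference over both genotypes was 2.22 ± 0.71 (unadjusted p = 0.00797, adjusted p = 0.454). For Nras minus wild-type, Bmp4 gave -1.54 ± 0.71 (unadjusted p = 0.0494, adjusted p = 0.640). Bmpr1a, a type 1 BMP receptor, read 2.2, 51.8 and 95.2 in Nras GFP- against 341.5, 1698.9 and 249.3 in wild-type GFP- and 448.5, 687.2 and 566.6 in Nras GFPhigh. Its Nras difference in GFP- was -4.57 ± 1.53 (unadjusted p = 0.0107, adjusted p = 0.983), -2.90 without the uneven arrays. Wild-type GFPhigh samples read 383.9, 13.9 and 488.7, the 13.9 from an uneven array. In limma its label difference was 4.66 ± 1.53 in Nras mice (unadjusted p = 0.00952, adjusted p = 0.286) and -1.93 ± 1.53 in wild-type mice (unadjusted p = 0.230). The interaction was 6.59 ± 2.17 (unadjusted p = 0.00950, adjusted p = 0.956), and 3.29 without the uneven arrays. Other Bmpr1a probe sets differed. In GFP- cells, 1 read 1.4, 2.1 and 221.7 in Nras against 458.3, 1372.6 and 252.4 in wild-type mice. Another was also lower without overlap, with 1.6, 38 and 5 against 39.1, 236.8 and 86.7. A further one overlapped, with 45.4, 95.9 and 56.8 against 21.8, 236.7 and 82.1. Those above the median on 0 arrays overlapped too. In GFP- cells 10.8% of all genes did not overlap between genotypes, in either direction. The list's Nras median was -0.86, and -0.14 without the uneven arrays.

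Among 15 repressors and turnover genes, all tested, 1 had an unadjusted p under 0.05 for GFPhigh minus GFP-, against 8.87% of all genes. This was Pmepa1, a TGF-beta-induced inhibitor, with 2.14 ± 0.95 (adjusted p = 0.551). It read 330.7, 205.6 and 329.9 in wild-type GFP- samples, 865, 50.8 and 665.3 in wild-type GFPhigh samples, 22.8, 5.8 and 218.7 in Nras GFP- and 1598.8, 315.9 and 320.4 in Nras GFPhigh, so Nras GFPhigh lay above Nras GFP- without overlap, as for 12.9% of all genes. Its label difference in Nras mice was 4.15 ± 1.35 (adjusted p = 0.280), and 3.17 without the uneven arrays, which gave the readings 22.8 and 1598.8. Another Pmepa1 probe set, above the array's median on 6 arrays, overlapped in Nras mice. It read 91.8, 40.9 and 56.4 in GFP- against 72.6, 230.7 and 97.7 in GFPhigh. Over both genotypes its label difference was 0.65. The remaining one, above the median on 0 arrays, did not overlap, with 6.7, 6.3 and 2.7 against 12.8, 13.3 and 16.1. Of the response genes, 13 of 15 were on the array and 7 tested, with a GFPhigh median of 0.94 (0.64 without the uneven arrays). Of these 7, 2 had an unadjusted p under 0.05, against 8.87% of all genes. One was Cdkn1c, the p57 cell cycle inhibitor, which was higher in every GFPhigh sample than in every GFP- sample of both genotypes (0.571% of all genes had groups that did not overlap, in either direction). It read 278.4, 538 and 230.5 in wild-type GFP- samples, 1520.5, 2693.8 and 1012.4 in wild-type GFPhigh samples, 202.7, 484.3 and 799.4 in Nras GFP- and 876.6, 1502.5 and 2102.7 in Nras GFPhigh. The difference was 2.01 ± 0.49 (adjusted p = 0.301) and 1.84 without the uneven arrays. The other was Fn1, fibronectin, with 2.07 ± 0.94 (adjusted p = 0.557). It read 148.3, 54 and 6.1 in Nras GFP- against 876.7, 1116.3 and 77.1 in Nras GFPhigh. In wild-type mice it ran from 24.2 to 55.9 in GFP- and from 16.9 to 119.7 in GFPhigh. Fn1 exceeded the array's median on 6 arrays, 2 of them GFP-, so it passed the filter of 3 only with GFPhigh arrays, where it was high. Its label difference was 3.53 ± 1.33 in Nras mice and 0.62 ± 1.33 in wild-type mice (unadjusted p = 0.020 and 0.650). Endothelial and stromal markers varied in Nras GFPhigh replicates 1 to 3, of which replicates 1 and 2 are uneven arrays. Col3a1 read 524.8, 1344.3 and 20.4, and Kdr 1487.5, 1329.4 and 163.4. Others did not follow them: Col1a1 read 21.4, 345.3 and 104.6, and Cxcl12 1411.6, 601.8 and 700.9. The part of such cells in Fn1 was not tested.

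**Figure D4:**
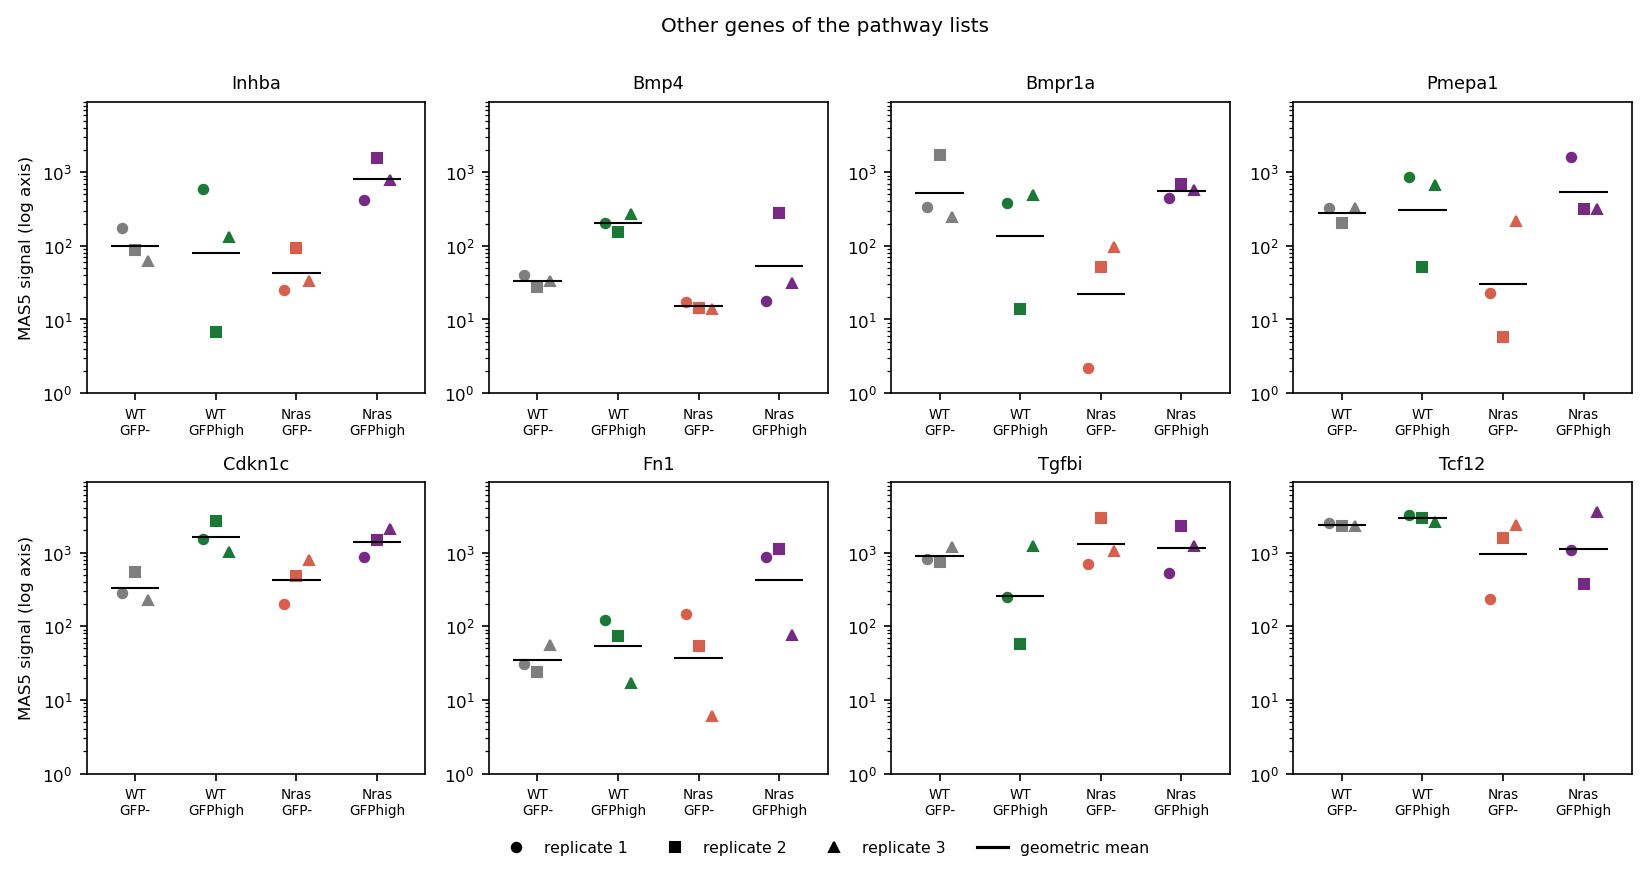
MAS5 signal, on a log axis, of 8 other genes of the pathway lists in the 4 groups, with a marker per replicate and a line at the geometric mean. Cdkn1c separates GFPhigh from GFP- samples in both genotypes, and Inhba separates them in Nras mice (24.9 to 92.8 against 413.8 to 1539.1). Of all genes, 0.571% did not overlap over both genotypes and 12.9% in Nras mice, in either direction.

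The remaining lists held few genes with an unadjusted p under 0.05. Of all genes, 8.87% had one in the averaged label comparison and 7.78% in the averaged Nras comparison. In the averaged comparisons the receptors for TGF-beta and activin had 0 of 6, with Acvr2b, an activin receptor, at -1.07 ± 0.52 (adjusted p = 0.654) for Nras minus wild-type and -0.71 without the uneven arrays. The SMADs and their partners had 0 of 7, with medians of 0.06 and 0.07, and Smad2, the sister of Smad3, at 0.38 ± 0.38 for Nras minus wild-type and 0.72 without the uneven arrays. The 8 partners and bHLH factors of the ID proteins, all tested, had 1: Tcf12 (HEB), an E protein that ID proteins bind, gave -1.34 ± 0.60 for Nras minus wild-type (adjusted p = 0.633), but -0.0073 without the uneven arrays and 0.55 without probe sets shared between transcripts. Tcf3, the E protein E2A, was -1.89 ± 0.72 for the Nras label comparison (adjusted p = 0.351) and -0.39 without the uneven arrays. Bmp4 and Fn1, like Ltbp1, did not pass the filter without those arrays and have no such value.

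Genes whose pattern over the 12 arrays was most like a member's were named for the 3 tested members of largest spread. For Tgfb1 these were Dnmt1, Hoxa7 and Srek1, with Pearson r of 0.845, 0.827 and 0.788 (0.895, 0.748 and 0.611 without the uneven arrays). For Id2 they were Card6, Mitf and Eloa at 0.885, 0.883 and 0.870 (0.876, 0.936 and 0.895), and for Smad7 Tpd52l2, Vps45 and Prkcb at 0.885, 0.873 and 0.872 (0.650, 0.635 and 0.714). They are the highest of 12082 other genes each and are given as a description.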

How the data were processed

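Total RNA from sorted HSCs was labelled as biotinylated cRNA and hybridised to arrays of 45101 probe sets; the values are MAS5 signals, per the submitters' processing notes, an intensity per probe set that the authors deposited on a linear scale, already scaled to a common trimmed mean. The annotation gave 34945 probe sets 1 gene, 932 several and 9160 none, and 64 were controls. Signals were floored at 0.1 (3 values of 0) and taken to log2. A gene was tested if its signal exceeded the array's median on at least 3 of 12 arrays. limma 3.58.1 (R 4.3.3, intensity trend in eBayes, all 12 arrays in 1 fit) gave 7 comparisons with Benjamini-Hochberg adjustment over 12083 genes, called at an adjusted p under 0.05. The number of arrays limits the precision, and the labels say biological replicates without saying whether animals were pooled. The members and lists were chosen with earlier results of these data known. On simulated data with 200 genes of 12083 changed, 34% of log2 changes of 2 and 73% of 4 were called in the label comparison. False calls were 2 and 10. The simulated noise was independent, with the same SD per gene on every array. The arrays here differed in weight, so these shares do not measure the power in these data. The main fit did not pair samples by replicate number. Correlations of same-numbered deviations had a median of 0.0422 over 18 pairs (-0.0119 over 36 others) and ran from -0.0444 to 0.152. Low correlations cannot decide whether same-numbered samples belong together. Named genes were drawn from the members, the up to 3 genes of smallest p per pathway list and averaged comparison, and the genes most like a member. Not all of the list genes are described above, and others named beside them were chosen after their values were seen. Alternatives were array weights, quantile normalization, median centring, a pseudocount of 100, no filter, the mean over probe sets, no shared probe sets, a replicate block, no uneven arrays, replicates 1 and 2 only, no trend and each array left out.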

Additional observations from a re-analysis of the deposited data

How the results depend on the processing

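The 82 gene values were recomputed under 23 alternatives, giving 1849 values: 1791 kept direction and side of the threshold, 58 turned direction and none crossed the threshold. For GFPhigh minus GFP-, the values that turned were Tgfbr1 -0.17, Tgfbr2 0.17, Smad4 -0.16 and Runx1 0.21 with the mean over probe sets; Smad4 -0.12 and Id3 -0.039 with median centring; Id3 -0.021 with quantile normalization; Smad4 -0.14 and Smad7 -0.16 without shared probe sets; Smad4 -0.25 with replicates 1 and 2; Id1 -0.030 with array weights; and Tgfbr2 0.43, Id1 -0.53, Id3 -0.62, Tgfbr3 0.44, Runx1 0.081, Zfyve9 -0.16 and Tcf4 0.28 without the uneven arrays. For Nras minus wild-type they were Smad7 -0.36, Sp1 -0.52 and Usp9x -0.20 with the mean over probe sets; Tgfbr2 0.093 with median centring; Smad7 -0.13 with replicates 1 and 2; Smad4 -0.17, Smad7 -0.87, Smad2 -0.016 and Tcf12 0.55 without shared probe sets; and Tgfbr1 0.25, Tgfbr2 0.58, Smad3 -0.088 and Id3 -0.64 without the uneven arrays. The cause was not tested.

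Leaving out 1 array at a time, the label difference ran from -0.082 to 0.44 for Tgfbr1, -0.84 to 0.090 for Tgfbr2, -0.12 to 0.25 for Smad4, -0.12 to 0.62 for Id1, -0.44 to 0.90 for Id2, -0.23 to 0.55 for Id3, -0.29 to 0.040 for Runx1 and -0.041 to 1.01 for Zfyve9. The Nras difference ran from -0.67 to 0.26 for Tgfbr2, -0.68 to 0.75 for Smad7, -0.067 to 0.71 for Id3 and -0.046 to 0.92 for Acvr1b.

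The number of genes called among all genes tested, with no member among them in the fit as reported, moved as follows. For GFPhigh minus GFP- over both genotypes it was 0, but 8 with array weights, 2 with centring, 6 with the pseudocount, 1 with no filter, 4 with the mean over probe sets, 5 without the uneven arrays, 1 with no trend and 0 to 16 without 1 array. In wild-type mice array weights gave 4; in Nras mice centring gave 3, leaving out the uneven arrays 9 and leaving out 1 array 0 to 161. For Nras minus wild-type it was 1, but 2 with quantile normalization and 0 with centring, without shared probe sets, with replicates 1 and 2, with no trend and without the uneven arrays, and 0 to 5 without 1 array (0 to 8 in GFP-, 0 to 17 in GFPhigh). The replicate block gave 0 there and changed no call on a member. The medians of the lists were added as alternatives after seeing the data. Without the uneven arrays, where too few arrays passed the filter, Id1 and Id3 were read with no filter.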
